A study of Mus musculus with 6 samples.

Results

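The E proteins and their Id inhibitors were followed through the return of Ebf1 to mouse B cell progenitors that lack it. The members are the E protein genes Tcfe2a (E2A, now named Tcf3), Tcf12 (HEB) and Tcf4 (E2-2), and the inhibitor genes Id1, Id2, Id3 and Id4. They were found by the gene name printed on the array, which gave 7 genes of 28307 names and 15 probes of 41174. A pair of probes that the array names Tcf3 was left out, because their description does not say E2A and both match the RefSeq gene Tcf7l1. The cells of both groups carry the genotype Ebf -/- and the cell type label pre-pro-B, the stage at which B cell development halts without Ebf1. Both groups grew on a layer of OP9 stroma in medium with Flt3 ligand, stem cell factor and interleukin 7 (each at 10 ng/ml), and were infected with a retrovirus that encodes EGFP. The control virus was pMYs-IRES-EGFP (n = 3) and the Ebf1 virus pMYs-Ebf1beta-IRES-EGFP (n = 3), and cells sorted for EGFP 24 h after infection gave total RNA for 1 Agilent 1-colour array each. Strain, age and the number of animals are not given in the sources used here, and nothing says that the replicates came from separate cultures, so p-values measure only the spread between these samples.

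E proteins are basic helix-loop-helix (bHLH) transcription factors that bind the E box, CANNTG, as dimers with each other or with tissue-restricted bHLH partners. Tcfe2a encodes E12 and E47 by alternative splicing and is needed, together with Ebf1, for early B cell genes to be switched on. Tcf12 acts beside it in B and T cell progenitors, and Tcf4 is best known as the factor that sets the plasmacytoid dendritic cell fate. Id proteins have the helix-loop-helix but no basic region, so that they pair with E proteins and keep them off DNA. Id2 is required by natural killer cells, innate lymphoid cells and several dendritic cells, Id3 acts in developing and activated lymphocytes, and Id1 is a common target of bone morphogenetic protein signals.

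Probes entered the test if all 3 arrays of either group read them well above background. Levels are log2 signals relative to the 75th percentile of the same array, changes are differences of these, Ebf1 minus control, and "called" means an adjusted p under 0.05 in limma over all 20455 tested probes. The 75th percentile signal was 240 to 366 units on control arrays and 316 to 364 on Ebf1 arrays, and correlations between arrays of a group were 0.984 to 0.993. All 11 pre-pro-B markers were above background on all 3 Ebf1 arrays, and Csf1r alone missed this on 1 control array. Their levels were not unchanged: 4 were called higher, 4 lower and 3 did not pass (12.6% of all genes were called higher and 11% lower). Il7r fell by 1.69 and Spn by 1.60, while Ly6d rose by 2.62. The summed signal of the 11 was 109 to 135 times the 75th percentile on control arrays and 230 to 251 times on Ebf1 arrays. Ly6d was the brightest of them on Ebf1 arrays, with a mean level of 7.48 against 4.86 in control cells. The higher sum thus leans on this gene and does not stand for the list, of which as many members were called lower as higher. All 8 tested markers of later B cells were called higher, their list's summed signal going from 3.70 to 3.77 times the 75th percentile on control arrays to 521 to 577 times on Ebf1 arrays, while Cd79a was dim on every array. For Ebf1 itself, the probe that was above background had a log2 change of -0.15 ± 0.21 (SE), which does not check the labels because the part of the transcript in the virus is not stated. The number of arrays, 3 per group, limits the precision of every value.

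Of the 7 genes, 6 had a tested probe, and 12 of the 15 probes were tested, the same 12 that were above background on all 6 arrays. Tcfe2a probes read higher and Id2 probes lower in Ebf1 cells, by less than 2-fold each, with 1 of their 2 probes called in each case. By the brightest tested probe, 0 of 6 member genes were called, against 23.6% of all genes. The 2 called probes of 12 stand beside 21.7% of all tested probes, and both calls were lost in several alternative fits. The sequences of these called probes show which stretch of each transcript the array read, 5′ to 3′ on the transcript strand, in lower case throughout.
Tcfe2a probe 2: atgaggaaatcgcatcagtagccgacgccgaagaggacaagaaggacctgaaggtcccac
Id2 probe 2: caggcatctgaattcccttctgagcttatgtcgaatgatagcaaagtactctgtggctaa
The Tcfe2a probe lies at chr10:79875963-79876022 on the minus strand of mm9 and starts at base 1849 of its transcript. The Id2 probe has 60 bases but spans 348 bases of the genome, chr12:25780183-25780530 on the minus strand, so it crosses a splice junction and reads spliced RNA. Exon numbers and UTR limits of the probes were not analysed here.

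Tcfe2a was higher in Ebf1 cells on both of its probes. At probe 2, control replicates 1 to 3 read 0.88, 1.12 and 0.89, and Ebf1 replicates 1 to 3 read 2.03, 1.59 and 1.61. All 3 Ebf1 arrays lay above all 3 control arrays, with Ebf1 replicate 1 the highest. The mean went from 0.96 ± 0.14 to 1.74 ± 0.25 (SD, n = 3 each), a rise of 0.78 ± 0.17 (SE) or 1.72-fold, with a 95% interval of 0.38 to 1.18 and an adjusted p of 0.0172. Probe 1 lies nearer the 3′ end of the same transcript, at chr10:79872639-79872698 and transcript base 2470. It read 3.72, 3.94 and 3.88 in control cells and 5.03, 4.19 and 4.35 in Ebf1 cells, again without overlap and again with Ebf1 replicate 1 the highest. Its log2 change of 0.68 ± 0.23 (SE), 1.60-fold with an interval of 0.14 to 1.22, did not pass (adjusted p = 0.0751), and without Ebf1 replicate 1 it was 0.42. The mean of both probes had a log2 change of 0.73 and passed, at an adjusted p of 0.0286.

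The call of Tcfe2a probe 2 was not stable. Without control replicate 1 its change was 0.74 with an adjusted p of 0.0533, and without control replicate 3 it was 0.74 with 0.0659. The arrays lay on 3 slides, and only slide 2 held both groups, as control replicate 2 and Ebf1 replicate 1. On that slide the difference was 0.91 for probe 2 and 1.10 for probe 1, which are also the values with slide as a block (adjusted p = 0.0716 and 0.0512). Centring each array on its median moved the median of all tested probes by -0.31, and the change of probe 2 was then 0.47 (adjusted p = 0.32). That fit gave every member probe the same SE of 0.34, against 0.17 for probe 2 in the reported fit. Calls gained or lost in it thus reflect the SE as well as the shift. Relative to the median of all probes, which is at -0.06 in the scaling used here, the change of probe 2 was 0.84. Both scalings subtract 1 value from each array, so this relative change is the same under both by construction and does not speak to stability.

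None of the 3 Tcf12 probes was called. At probe 1 (chr9:71692310-71692369, minus strand), control replicates read 2.87, 2.86 and 2.81 and Ebf1 replicates 3.34, 2.99 and 3.08. The groups did not overlap, but the change of 0.29 ± 0.15 (SE) had an interval of -0.06 to 0.63 and an adjusted p of 0.207. Probe 2 (chr9:71693581-71693640) read 0.07, 0.40 and 0.18 against 1.07, 0.35 and 0.53, so that Ebf1 replicate 2 fell among the controls. Its change of 0.43 ± 0.21 did not pass (interval -0.06 to 0.93, adjusted p = 0.187). Without Ebf1 replicate 1 the changes were 0.18 at probe 1 and 0.22 at probe 2.

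Tcf12 probe 3 belongs to a cDNA clone (chr9:71791228-71791287) and had only 17.8 to 37.8 signal units. It read -4.08, -3.75 and -3.87 in control and -3.69, -3.20 and -3.19 in Ebf1 cells, a change of 0.54 ± 0.19 (interval 0.10 to 0.98, adjusted p = 0.0794). The groups did not overlap, yet the change was 0.09 with normexp background correction and 0.06 with slide as a block. Without Ebf1 replicate 1 it was 0.71 and called (adjusted p = 0.0267). The mean of all 3 probes of Tcf12 had a log2 change of 0.42 that passed narrowly (adjusted p = 0.0499). Median centring lowers every probe alike, and took probe 1 to -0.02. Relative to the median of all probes, probe 1 was at 0.35, by construction the same under both scalings.

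For Tcf4 no difference between the viruses was detectable with these arrays. Probe 1 (chr18:69843681-69843740, plus strand) read 1.87, 1.90 and 1.88 in control cells and 1.51, 1.75 and 1.99 in Ebf1 cells. Its control arrays lay close together and inside the spread of the Ebf1 arrays. The change was -0.13 ± 0.16 (SE) with an interval of -0.51 to 0.24 and an adjusted p of 0.591. Probe 2 (chr18:69842750-69842809) read 0.89, 0.23 and 0.76 against 0.58, 0.64 and 0.78, with overlapping groups, and a change of 0.04 ± 0.20 (interval -0.42 to 0.50, adjusted p = 0.91). Under median centring its change was -0.27. Relative to the median of all probes it was 0.10, by construction the same under both scalings. Probe 3, which spans 54577 bases of the genome and so crosses a splice junction, was above background on 0 control arrays and 2 Ebf1 arrays and was not tested.

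Id2 was lower in Ebf1 cells on both of its probes. At probe 2, control replicates 1 to 3 read 2.81, 2.25 and 2.56, and Ebf1 replicates 1 to 3 read 1.55, 1.88 and 1.87. Every Ebf1 array lay below every control array, and control replicate 2 was the control nearest to them. The mean went from 2.54 ± 0.28 to 1.77 ± 0.19 (SD, n = 3 each). It fell by 0.78 ± 0.19 (SE), or 1.71-fold, with an interval of -1.22 to -0.34 and an adjusted p of 0.0248. Probe 1 (chr12:25778904-25778963, minus strand, nearer the 3′ end) read 3.23, 3.44 and 3.43 against 2.95, 2.37 and 2.92. These groups did not overlap either, with Ebf1 replicate 2 the lowest. The change of -0.62 ± 0.19 (SE), 1.54-fold with an interval of -1.07 to -0.17, did not pass (adjusted p = 0.0573), and the mean of both probes passed at -0.70 (adjusted p = 0.0082).

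The call of Id2 probe 2 was lost without any 1 of 4 arrays: control replicate 1 (log2 change -0.64, adjusted p = 0.0672), control replicate 3 (-0.77, 0.0788), Ebf1 replicate 1 (-0.67, 0.0613) and Ebf1 replicate 2 (-0.83, 0.0559). On slide 2 the difference was -0.70 for probe 2 and -0.49 for probe 1, and with slide as a block the adjusted p was 0.152 for probe 2. Under median centring both Id2 probes were called, at -0.93 for probe 1 and -1.08 for probe 2, in the fit that gave every member probe the same SE. Relative to the median of all probes they were at -0.56 and -0.71, by construction the same under both scalings. Of the natural killer and innate lymphoid markers, which include genes of cells that depend on Id2, 6 were tested, and 4 were called lower and 1, Tbx21, higher by 3.55 (11% of all genes were called lower and 12.6% higher). The summed signal of all 10 was 29.1 to 33.9 times the 75th percentile on control arrays and 9.29 to 10.6 times on Ebf1 arrays, with the defining genes Klrb1c and Klrk1 dim on every array. The part of such cells in the Id2 values was not tested, and in bulk RNA fewer cells of a type and less RNA per cell cannot be told apart.

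Id1 and Id3 did not differ detectably. Id1 is read by a pair of probes that overlap on the genome (chr2:152563036-152563095 and chr2:152563046-152563105, plus strand), so they are not independent readings. Probe 1 read -1.52, -0.96 and -1.34 in control and -1.04, -1.37 and -1.12 in Ebf1 cells, and the Ebf1 values fell within the control range. The changes were 0.09 ± 0.19 (SE, interval -0.34 to 0.53, adjusted p = 0.748) at probe 1 and -0.01 ± 0.21 (-0.50 to 0.47, 0.969) at probe 2. Under median centring probe 1 was at -0.21. Relative to the median of all probes it was at 0.16, by construction the same under both scalings.

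Id3 has 1 probe, which spans 175 bases of the genome (chr4:135700075-135700249, plus strand) and crosses a splice junction. It read -2.13, -1.41 and -2.15 in control and -1.72, -2.14 and -1.91 in Ebf1 cells, with all Ebf1 values inside the control range. The change was -0.02 ± 0.23 (SE, interval -0.57 to 0.52, adjusted p = 0.958). Control replicate 2 was the highest control array at both Id1 probes and at Id3. Id4 was not tested, since its 2 probes were above background on at most 1 of the 6 arrays.

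**Figure D1:**
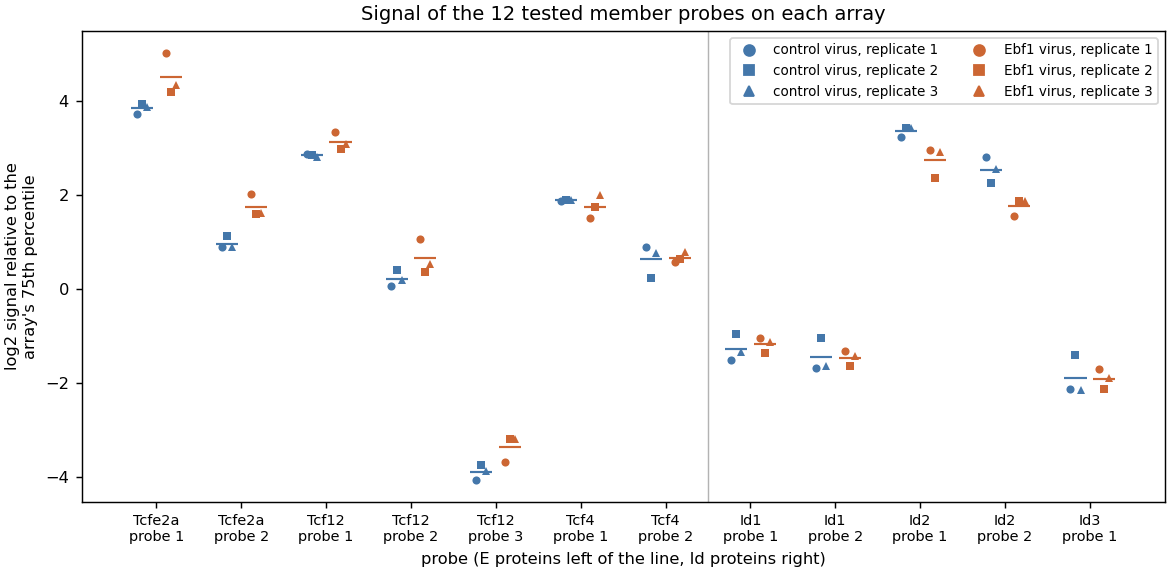
Log2 signal relative to the 75th percentile of the array (vertical axis) for the 12 tested member probes (horizontal axis), with 1 point per array, marker shape for replicate and a line for the mean of 3 arrays. The Ebf1 points lie clear above the control points at both Tcfe2a probes and clear below them at both Id2 probes, and they are mixed at Tcf4, Id1 and Id3; levels of different probes are not comparable.

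Across the members, 2 of 12 tested probes were called, 1 in each direction, against 21.7% of all tested probes. At an unadjusted p under 0.05 there were 5 member probes of 12, and 7368 of all 20455. The groups did not overlap at 6 of the 12, against 42.6% of all tested probes. These shares are near those of the array as a whole. Among the 7 tested E protein probes, 1 was called higher (11.5% of all probes were), and 6 of 7 changes were above 0, with a median of 0.43 against -0.06 for all probes. Median centring, which lowers every probe by 0.31, left 4 of those 7 above 0 with a median of 0.12 against -0.37 for all probes. The E protein median stood 0.50 above that of all probes, by construction the same under both scalings. Among the 5 tested Id probes, 1 was called lower (10.2% of all probes were). The Id median was -0.02, or -0.33 under median centring. That is 0.04 above the median of all probes, again by construction the same under both scalings. By the brightest tested probe of each gene, 0 of 6 genes were called in limma, against 23.6% of all genes, and the groups did not overlap at 3 of 6, against 45.4%. Both Tcfe2a and Id2 were under 0.05 before adjustment, and both were called with the trend and robust options of limma.

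**Figure D2:**
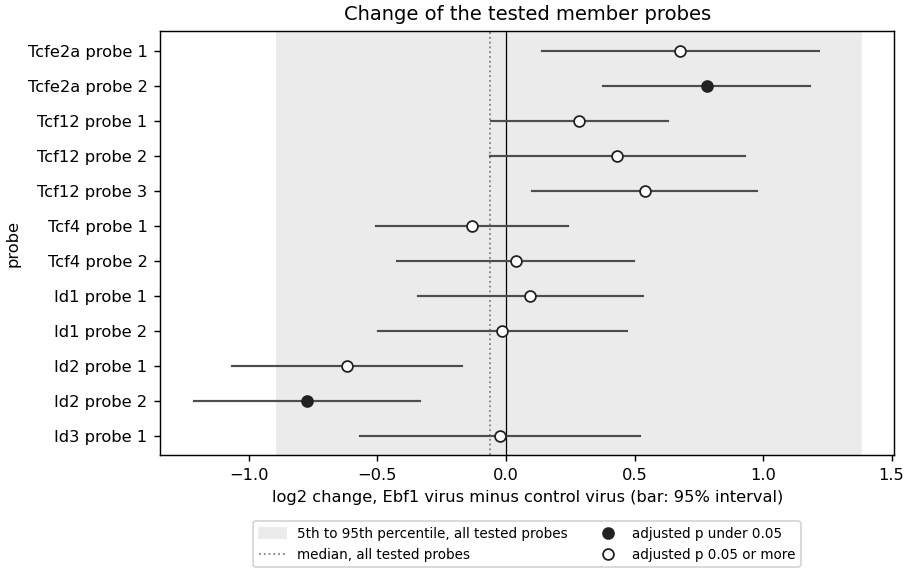
Log2 change, Ebf1 virus minus control virus (horizontal axis), of the 12 tested member probes (vertical axis), with 95% intervals from limma as bars, filled points for adjusted p under 0.05, and the median (-0.06) and the 5th to 95th percentile (-0.89 to 1.38) of all tested probes behind them. All member changes lie inside that band; the intervals of both Tcfe2a probes, Tcf12 probe 3 and both Id2 probes do not reach 0.

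**Figure D3:**
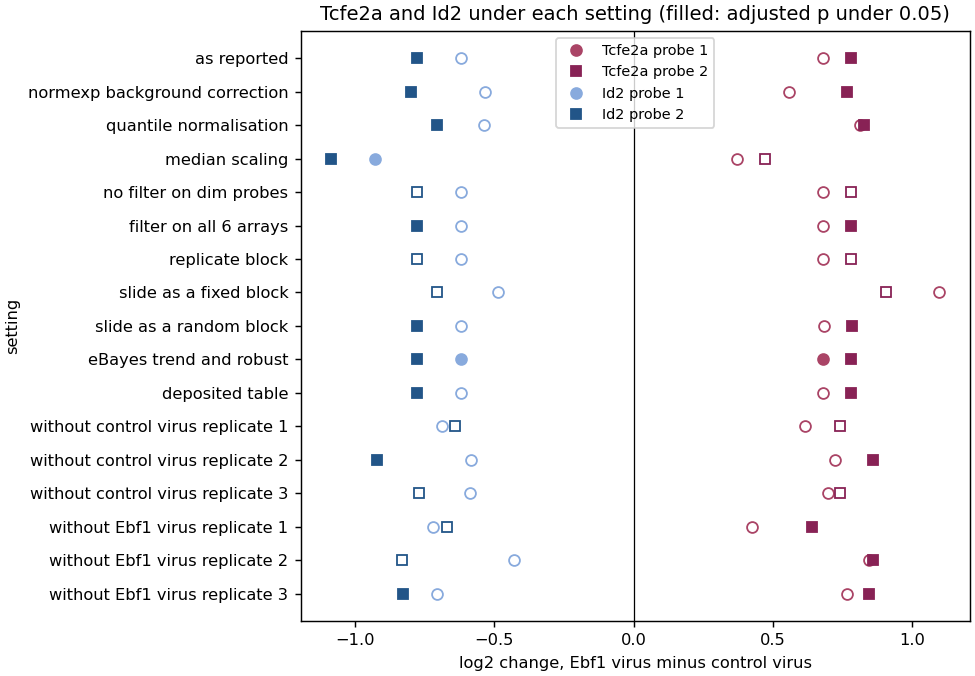
Log2 change of the Tcfe2a and Id2 probes (horizontal axis) under the reported setting and each alternative (vertical axis), filled where the adjusted p was under 0.05. Tcfe2a stayed above 0 and Id2 below 0 throughout, from 0.37 to 1.10 for Tcfe2a and from -1.08 to -0.43 for Id2, while the calls came and went.

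Promoter sequence was looked at for Tcfe2a and Id2, each with 1 called probe, with RefSeq start sites on GRCm38.p6. The reason was that E proteins bind E boxes and Ebf1 binds a palindrome with the core CCCNNGGG. Of the 7 members, 5 had a promoter entry that was used, with 7 start sites. The windows are the 250 bases before the start site, 5′ to 3′ toward the gene, with the E box in capitals: chr10:80433636-80433885 (minus strand) for Tcfe2a and chr12:25096093-25096342 (minus strand) for Id2.
Tcfe2a promoter: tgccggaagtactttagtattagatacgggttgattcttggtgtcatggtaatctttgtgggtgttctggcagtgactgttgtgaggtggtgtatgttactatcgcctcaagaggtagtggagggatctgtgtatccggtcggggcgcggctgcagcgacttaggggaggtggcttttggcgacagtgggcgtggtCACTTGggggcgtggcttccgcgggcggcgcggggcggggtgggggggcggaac
Id2 promoter: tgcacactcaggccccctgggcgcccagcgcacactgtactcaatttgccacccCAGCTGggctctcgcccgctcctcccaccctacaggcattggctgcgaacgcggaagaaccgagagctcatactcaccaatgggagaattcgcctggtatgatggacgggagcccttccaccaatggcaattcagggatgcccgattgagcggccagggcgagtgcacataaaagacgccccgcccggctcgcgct
The Tcfe2a window held 1 E box, CACTTG, that begins 54 bases before the start site, and the Id2 window held 1, CAGCTG, that begins 196 bases before it. On either strand, CANNTG occurs in 66.2% and CAGCTG in 13.0% of 32851 RefSeq windows of this length. The Id2 window also held 1 match to CCCNNGGG, a word present in 11.8% of all windows, and the Tcfe2a window held none. These matches describe the letters of the windows, and no binding was measured.

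Genes that E proteins are known to switch on in early B cells rose for the most part. Of 25 on the array 22 were tested, of which 14 rose, 2 fell and 6 did not pass, against 12.6% of all genes called higher and 11% called lower. The median change was 1.15, or 0.91 when 5 members dim in the control group were set to their lower bounds, against -0.06 for all genes. Many of these are also known targets of Ebf1, so the count does not separate the factors, and 8 of the 25 are also among the later B lineage markers. Igll1 and Vpreb1, which encode the surrogate light chain, and Cd79b, a signal-transducing part of the B cell receptor, rose by 11.00 ± 0.14, 8.20 ± 0.15 and 7.42 ± 0.15 (SE). Igll1 was above background on only 2 of 3 control arrays, and its change was 8.65 with normexp correction. Gfi1b, a zinc finger repressor chosen after its values were seen, fell by 1.70 ± 0.14 (adjusted p = 0.000147). With slide as a block 10 members were called instead of 16, and with the filter on all 6 arrays 9.

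Target genes of E proteins in thymocytes and in the cell cycle gave 6 rises, 2 falls and 9 without a call among 17 tested of 21, with a median of 0.14. Of all genes, 12.6% were called higher and 11% lower. Hes1 and Notch3 (the latter chosen after its value was seen) entered the test only through the Ebf1 group. The rises were led by the Notch receptor gene Notch1 (2.01 ± 0.15) and the Notch pathway genes Dtx1 (3.49 ± 0.25, 2.41 with normexp correction) and Hes1. For Hes1, dim on all control arrays, the processed signal was at least 4.57-fold higher, but normexp correction, which adds an offset to every signal, gave a log2 change of 0.91, which is below that bound. Mycn fell by 1.68 ± 0.16. Among the cell cycle inhibitors of the list, and chosen after its value was seen, Cdkn1a (p21) rose by 0.81 ± 0.18 (adjusted p = 0.0175). In the same class, Cdkn2a and Cdkn2d were at 0.16 ± 0.19 and 0.04 ± 0.17 and did not pass. Of the 7 tested T cell markers, Cd3d (-1.76 ± 0.37) and Cd3g (-1.53 ± 0.27) were called lower, Tcf7 (1.61 ± 0.22) was called higher and 4 did not pass; the sum of all 10 was 16.1 to 19.1 on control and 15.0 to 17.5 on Ebf1 arrays, with Cd8a dim on every array.

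The tissue-restricted bHLH partners, which dimerise with E proteins in muscle, nerve, blood and other tissues, were mostly dim. Only 7 of 36 were tested, of which 3 rose and 2 fell (12.6% of all genes were called higher and 11% lower). The 3 that rose were above background on 0 or 2 of the control arrays and entered the test only through the Ebf1 group, where they are high, so the count is no support for a direction of the list. Bhlha15 (Mist1), a factor of secretory cells, was at least 63.4-fold higher in Ebf1 cells at 1 of its 2 tested probes (log2 change 3.76 with normexp correction, below that bound). Tcf15, a factor of somites, was at least 12.5-fold higher, and normexp correction again gave a value below the bound (log2 change 1.84). Scx, a tendon factor, went from -4.45 ± 0.14 to -0.83 ± 0.12 (SD, n = 3 each), a rise of 3.62 ± 0.15 (SE, adjusted p = 4.54e-06) that was 1.57 with normexp correction. The blood partner Tal1 fell by 1.76 ± 0.16, and its relative Lyl1, chosen after its value was seen, fell by 0.98 ± 0.15 (adjusted p = 0.00319). With the filter on all 6 arrays all 3 rises left the test and only the 2 falls were called.

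Other bHLH factors, which do not as a rule pair with E proteins, gave 3 rises, 2 falls and 16 without a call among 21 tested of 29, with a median of -0.06. That is 23.8% called, against 23.6% of all genes. Hes1, 1 of the 3 rises, is also in the list of thymocyte targets and entered the test only through the Ebf1 group. Ahr, the aryl hydrocarbon receptor, fell by 1.96 ± 0.15 (SE, adjusted p = 0.0001). The Notch target Hes5 rose by 1.17 ± 0.14 but lost its call under median centring (0.86), and Bhlhe40, a repressor of the circadian clock, rose by 1.43 ± 0.24. Its paralog Bhlhe41, chosen after its value was seen, fell by 2.03 ± 0.40 (adjusted p = 0.0104). The difference between these paralogs was not tested.

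Cofactors and turnover factors of E proteins gave 3 rises, 3 falls and 14 without a call among 20 tested of 23, with a median of -0.17 (30% called, against 23.6% of all genes). The LIM-only genes, which encode adaptors that bind Ldb1, moved both ways. Lmo1 rose by 1.87 ± 0.22 (SE, 0.79 with normexp correction), Lmo2 rose by 1.52 ± 0.21, and Lmo4 fell by 1.21 ± 0.19 (2 of its 3 tested probes called). Trib1, a scaffold for protein breakdown, fell by 1.00 ± 0.15, but with slide as a block its change of -1.04 was not called. Cbfa2t3, the corepressor ETO2, and Skp2, a ubiquitin ligase subunit that promotes E2A breakdown, were both chosen after their values were seen. Cbfa2t3 rose by 0.70 ± 0.17 (adjusted p = 0.025) and Skp2 fell by 0.46 ± 0.13 (adjusted p = 0.044). The coactivators Ep300 and Crebbp were at 0.22 ± 0.16 and 0.12 ± 0.18 and did not pass. With slide as a block 3 of the list were called.

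Of the BMP, TGF-beta and Smad genes, whose signals are known to drive Id1, Id2 and Id3, 20 of 32 were tested, and 2 rose, 4 fell and 14 did not pass (median -0.07; 30% called, against 23.6% of all genes). The ligand gene Bmp7 fell by 1.31 ± 0.18 (SE, adjusted p = 0.00168) and Bambi, a decoy receptor, by 0.82 ± 0.13. The ligand gene Tgfb1 rose by 1.83 ± 0.16 (adjusted p = 0.000159), and Ski, a corepressor of Smads, by 0.89 ± 0.14. Bambi (-0.77) and Ski (0.91) were not called with slide as a block, nor Ski under median centring (0.58). With slide as a block 2 of the list were called. Smad5, chosen after its value was seen, fell by 0.61 ± 0.16 (adjusted p = 0.0336), and Smad1 and Smad4 were at 0.19 ± 0.35 and -0.06 ± 0.16 and did not pass.

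Genes of innate lymphoid and dendritic cells that depend on Id2 were mostly lower. Of 19 on the array 13 were tested, of which 3 rose, 7 fell and 3 did not pass, with a median of -1.53. Of all genes, 12.6% were called higher and 11% lower. The cytokine receptor gene Il2rb fell by 2.19 ± 0.14 (SE), the innate lymphoid and T cell factor Gata3 by 2.53 ± 0.22 and the integrin gene Itgae, which encodes CD103, by 2.33 ± 0.17 (-1.20 with normexp correction). Tox and Batf3, factors of innate lymphoid and dendritic cells, and the receptor gene Il18r1 were chosen after their values were seen and changed by -1.53 ± 0.25, -1.62 ± 0.27 and -2.11 ± 0.26, all called. Tbx21, which encodes T-bet, went the other way and rose by 3.55 ± 0.22 (2.10 with normexp correction). The innate lymphoid factor gene Nfil3, at -0.18 ± 0.21, did not pass. Of the 20 genes of the list, 8 are also among the natural killer and innate lymphoid markers, whose sum is given above.

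Plasmacytoid dendritic cell genes, many of which are known to need Tcf4, moved both ways while Tcf4 itself was not called. Of 21, 19 were tested, and 9 rose, 5 fell and 5 did not pass (median 0.47). The shares of all genes, beside which this count and the marker counts below stand, were 12.6% called higher and 11% called lower. Spib, an Ets factor shared by plasmacytoid dendritic and B cells, rose by 4.95 ± 0.20 (SE) and Ly6d by 2.62 ± 0.19, and the receptor gene Cd300c by 2.14 ± 0.16. Cox6a2 fell by 1.76 ± 0.14. All 8 plasmacytoid dendritic cell markers are in this list, and of them 4 fell and 1 rose. Their summed signal was 105 to 124 times the 75th percentile on control arrays and 62.1 to 70.4 times on Ebf1 arrays. Feeder cell markers were present as well: the sum of 22 OP9 markers was 47.3 to 51.1 on control and 54.9 to 68.6 on Ebf1 arrays, with 3 of 17 tested called higher and Postn, Lum and Dcn dim on every array. Of 5 tested myeloid markers Mpo, Fcgr1 and Adgre1 were called lower and Csf1r higher, and the sum of 11 was 14.1 to 21.2 on control and 8.11 to 9.86 on Ebf1 arrays, with Ctsg and Csf3r dim on every array. The part of other cell types in the member values was not tested.

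**Figure D4:**
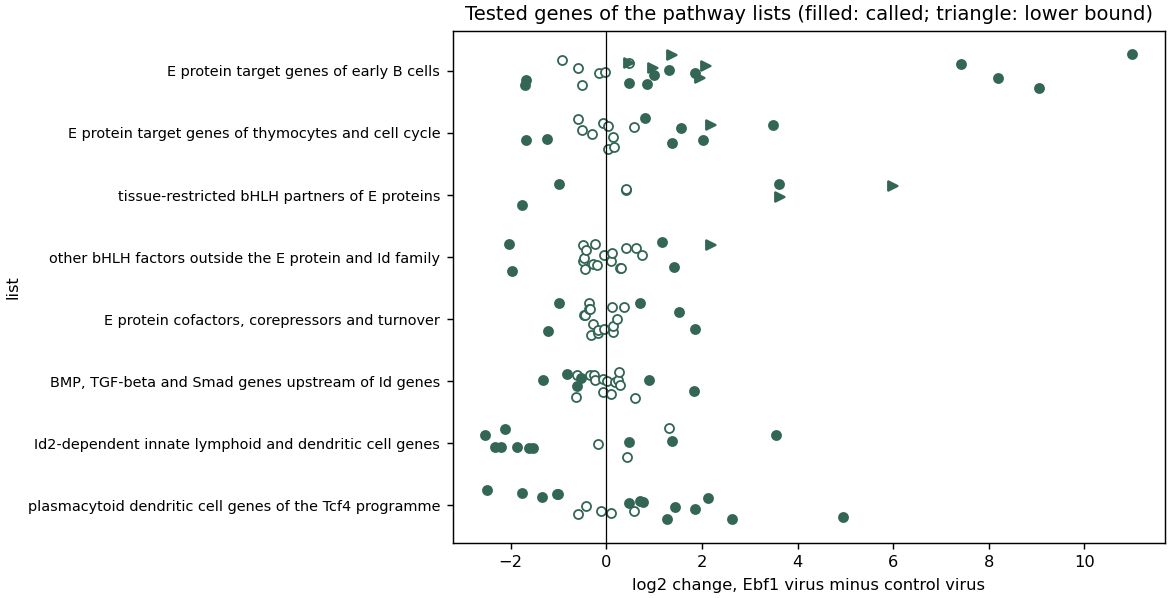
Log2 change, Ebf1 virus minus control virus (horizontal axis), of each tested gene in the 8 lists (vertical axis), filled where called, with triangles for lower bounds of genes that were dim in 1 group; points are spread vertically for legibility. Early B cell targets reach 11.00 to the right, and Id2-dependent genes lie mostly to the left (7 of 13 fell, against 11% of all genes). In each of the cofactor and Smad lists 14 of 20 genes were not called.

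The pattern over the 6 arrays was compared with that of 11308 other tested genes with a symbol, as the root mean square distance in log2 units after each gene was centred on its own mean. Nearest to Tcfe2a, by its brightest probe, were the sorting nexin gene Snx14 at 0.046, Sipa1l3 at 0.056 and the dehydrogenase gene Aldh6a1 at 0.069. Nearest to Id2 were the phosphatase gene Phlpp2 at 0.049, the myosin gene Myo16 at 0.056 and Tfdp1, a partner of E2F factors, at 0.057. Tcf12 had Rlf at 0.022, Ccdc14 at 0.030 and D6Wsu163e at 0.034, and Tcf4 had Rida at 0.026, Zfp862 at 0.028 and Taco1 at 0.036. The nearest to Id1 were Atad2b, Gadd45a and Pms1 at 0.051 to 0.055, and the nearest to Id3 were Gadd45a, Steap1 and Atl2 at 0.098 to 0.102. Gadd45a, a stress response gene, was thus near both. Among the members, Id1 and Id3 were the closest pair at 0.124, and Tcfe2a and Id2 the farthest apart at 0.676. These distances describe 6 arrays and include their common technical deviations.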

How the data were processed

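Spot intensities on a linear scale were used, from 6 Agilent 1-colour arrays that the authors deposited. Agilent Feature Extraction 10.5.1.1 made them, per the file headers, and subtracted background within each array, and gave probe positions on mm9. The submitters' processing notes name the same software without a version. A deposited series table held identical intensities (largest relative difference 0). Per the labels' protocols, cRNA was primed with oligo dT.

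The log2 of the processed signal minus the 75th percentile of the array was fitted with limma 3.58.1 (lmFit, eBayes; R 4.3.3, package data.table, version 1.17.8), as a two-sided test whose p-values were adjusted over 20455 probes (Benjamini-Hochberg). Control features and 65 to 116 flagged spots per array were left out, spots of a probe averaged, and 0 non-control spots were saturated. "At least" folds set the brighter mean against the dimmer mean with each array raised to its lowest signal above background. A list gene was represented by its brightest tested probe. Of 41174 probes, 61.0% had an accession matched to RefSeq symbols.

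The members and the lists were chosen with earlier results of these data known. The text names all members, up to 4 called genes of each list and 3 of each marker list by smallest p, not all of which are described, and 3 nearest genes per member; genes outside this rule are marked where they appear. Alternatives tried were median scaling, quantile normalisation, normexp correction (offset 50), no filter, a filter on all 6 arrays, replicate and slide blocks, eBayes trend and robust, the mean of all probes, the deposited table and each array left out. On simulated data of 20447 probes, the fit recovered 0% of 50 probes changed by 0.5, 34% at 1, 60% at 1.5 and 76% at 2 (log2), with 5 false calls. Only 50 probes of each size were changed, while 21.7% of tested probes were called in the data. The adjusted threshold was therefore stricter in the simulation, and these shares do not measure the recovery of the real fit.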

Additional observations from a re-analysis of the deposited data

How the results depend on the processing

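Of the 132 tested genes in the lists 64 were called, beside 23.6% of all genes. The lists were chosen with earlier results of these data known. Under the alternatives the count stayed within 1.5 times, from 45 to 72, while the called probes of the whole array ran from 1996 to 5031. Without a filter on dim probes 1996 probes were called and 0 member probes (5 at an unadjusted p under 0.05 in limma), with unchanged values (0.78 for Tcfe2a probe 2 and -0.78 for Id2 probe 2). With slide as a fixed block 2168 probes and 0 member probes (4 unadjusted) were called, with Tcfe2a probe 2 at 0.91 and Id2 probe 2 at -0.70; this fit has 2 residual degrees of freedom, and only slide 2 informs it. The replicate numbers did not pair the samples (correlations of deviations -0.17, -0.25 and 0.10). With the replicate block 3096 probes were called and 0 member probes (5 unadjusted), Tcfe2a probe 2 at 0.78 (adjusted p = 0.0536) and Id2 probe 2 at -0.78 (adjusted p = 0.0737). With eBayes trend and robust 4 member probes were called, adding Tcfe2a probe 1 (0.68) and Id2 probe 1 (-0.62). Median scaling gave 0.47 for Tcfe2a probe 2 and -0.93 for Id2 probe 1. Its SE was 0.34 for every member probe and named list gene, so it does not follow the spread of single probes. There 32.2% of calls were higher in Ebf1 cells against 53.0% in the reported fit, and that share was 67.2% without a filter. Averaging a gene's tested probes gave calls to Tcfe2a (0.73), Tcf12 (0.42) and Id2 (-0.70).

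Leaving out 1 array at a time gave 2610 to 3702 called probes, the lowest without control replicate 2 and 2822 without control replicate 3, against 4435 with all arrays, and 0 to 2 member probes (3 to 5 unadjusted). Over these fits Tcfe2a probe 2 was at 0.64 to 0.86, Tcf12 probe 3 at 0.45 to 0.71 and Id2 probe 2 at -0.92 to -0.64. Of the other values, 822 kept their side of the threshold or their size, 40 lost a call and 7 counts moved by over 1.5 times. The causes were not tested. Tcf12 probe 3, Tcf4 probe 3 and Id4 lie near or under background.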
